A study of Mus musculus with 20 samples.

Results

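The difference between Ncs1 knockout and wild type, called the knockout effect, was compared between frontal cortex and hippocampus of the mouse, gene by gene. All 20 libraries of the study entered the comparison, and a gene was included where both regional count tables list it, which held for 17148 of the 17880 genes listed in either table. Of these, 15310 had enough counts to be tested. For each gene the knockout effect in cortex was subtracted from the knockout effect in hippocampus, and this difference of differences is called the interaction. The mean of both effects is called the shared effect.

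There were 4 groups of 5 libraries: Ncs1+/+ (wild-type) frontal cortex, Ncs1-/- (knockout) frontal cortex, wild-type hippocampus and knockout hippocampus. All mice had the C57Bl6/J strain background. The sources used here do not give age, sex, the knockout allele or its breeding, nor the number of mice or whether both regions came from the same ones. The labels leave it unsaid whether the libraries of a group are separate animals. P-values then measure only how far these samples vary, which may in part be technical. RNA came from whole pieces of tissue, so fewer cells of a type and less RNA per cell cannot be told apart.

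Ncs1 encodes neuronal calcium sensor 1, a small EF-hand protein that is anchored to membranes by a myristoyl group and changes shape when calcium binds. In neurons it is known as a regulator of neurotransmitter release, of voltage-gated calcium channels and of phosphatidylinositol 4-kinase, and as a partner of the dopamine D2 receptor. Cortex and hippocampus both express it strongly. A knockout effect present in both regions and one present in a single region are therefore different observations about the same genotypes.

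Libraries held between 16609603 and 34612610 counts, with knockout hippocampus the deepest group. Levels below are CPM, the counts of a gene per 1000000 counts of the library after TMM scaling, and changes are log2 fold changes of knockout against wild type. Some libraries stood apart before any comparison. Knockout hippocampus replicate 1 lay at a median distance of 0.157 on the log2 scale from the other libraries of its group, over 9885 genes whose mean was 10 CPM or more, where the other 19 libraries lay at 0.0597 to 0.111. Ttr, the transthyretin of choroid plexus, was above 100 CPM in 4 libraries only: knockout cortex replicate 1 at 207, wild-type hippocampus replicate 4 at 2000, and knockout hippocampus replicates 2 and 4 at 3119 and 320 CPM. The summed marker lists of the 2 regions followed the labels. Cortical layer markers were at 1750 to 1960 CPM in cortex and 1210 to 1400 CPM in hippocampus, and hippocampal subfield markers at 919 to 1030 and 1390 to 1810 CPM. Not every member did, as the cortical layer marker Fezf2 had a mean of 24.8 CPM in wild-type cortex and 40.4 CPM in wild-type hippocampus. Striatal markers, of a region that the labels do not name, summed to 1600 to 2730 CPM in cortex and 506 to 568 CPM in hippocampus.

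Ncs1 itself was lower in knockout by almost the same factor in both regions. In wild-type cortex it was at 384, 351, 365, 387 and 352 CPM, and in knockout cortex at 259, 256, 255, 265 and 259 CPM. In wild-type hippocampus the 5 libraries were at 432, 438, 471, 436 and 427 CPM, and in knockout hippocampus at 329, 281, 313, 301 and 279 CPM. Knockout and wild-type libraries did not overlap in either region, and over the 252 arrangements of its libraries each region had a two-sided exact permutation p of 0.00794, the smallest possible. The mean in knockout was 70.4% of that in wild type in cortex and 68.1% in hippocampus. The interaction was -0.05 (SE 0.06, 95% interval -0.18 to 0.09, edgeR p 0.472), so a regional difference in the remaining transcript was not detectable. Counts per gene do not show which exons the remaining reads come from.

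The mean of both effects was tested next, which a large effect in a single region can also carry. By the quasi-likelihood test of edgeR, with p-values adjusted over the 15310 genes (Benjamini-Hochberg), 12 genes passed an adjusted p of 0.05 for the shared effect, which is 0.0784% of those tested. Hmcn2, Trub2, Serpina3g and Rc3h2 rose, Serpina3g by its cortex effect, with a log2 fold change of -0.12 in hippocampus. Ncs1, Cercam, Lypd6b, Myoc, Arl5a, Htra1, Atp6v0c and Rpn1 fell. Chromosome 2, which carries Ncs1, held 7 of the 12 (Ncs1, Hmcn2, Trub2, Cercam, Rc3h2, Lypd6b and Arl5a) and 7.96% of all tested genes. Whether the changes of its other genes follow from the loss of Ncs1 was not tested. At an unadjusted p of 0.05 the shared effect passed for 2488 genes (16.3%), 1369 higher (8.94%) and 1119 lower (7.31%).

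This number of calls depended on single libraries. Without knockout hippocampus replicate 1, 969 genes passed, 454 higher and 515 lower, and without wild-type cortex replicate 5, 59 passed. All 12 genes were among both sets. Without the 4 libraries with more than 100 CPM of Ttr, 5 passed (Ncs1, Hmcn2, Trub2, Cercam and Lypd6b). Ncs1, Hmcn2, Trub2, Cercam, Lypd6b, Myoc, Arl5a and Htra1 passed in each of the 20 fits that left out 1 library. Serpina3g passed in 7 of them, Rc3h2 in 5, Rpn1 in 4 and Atp6v0c in 3. These fits took the libraries of both regions as independent, which the labels do not state. With genotype and number taken as 1 mouse, 5 genes passed. Arl5a, Atp6v0c, Htra1, Myoc, Rc3h2, Rpn1 and Serpina3g then did not.

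**Figure D1:**
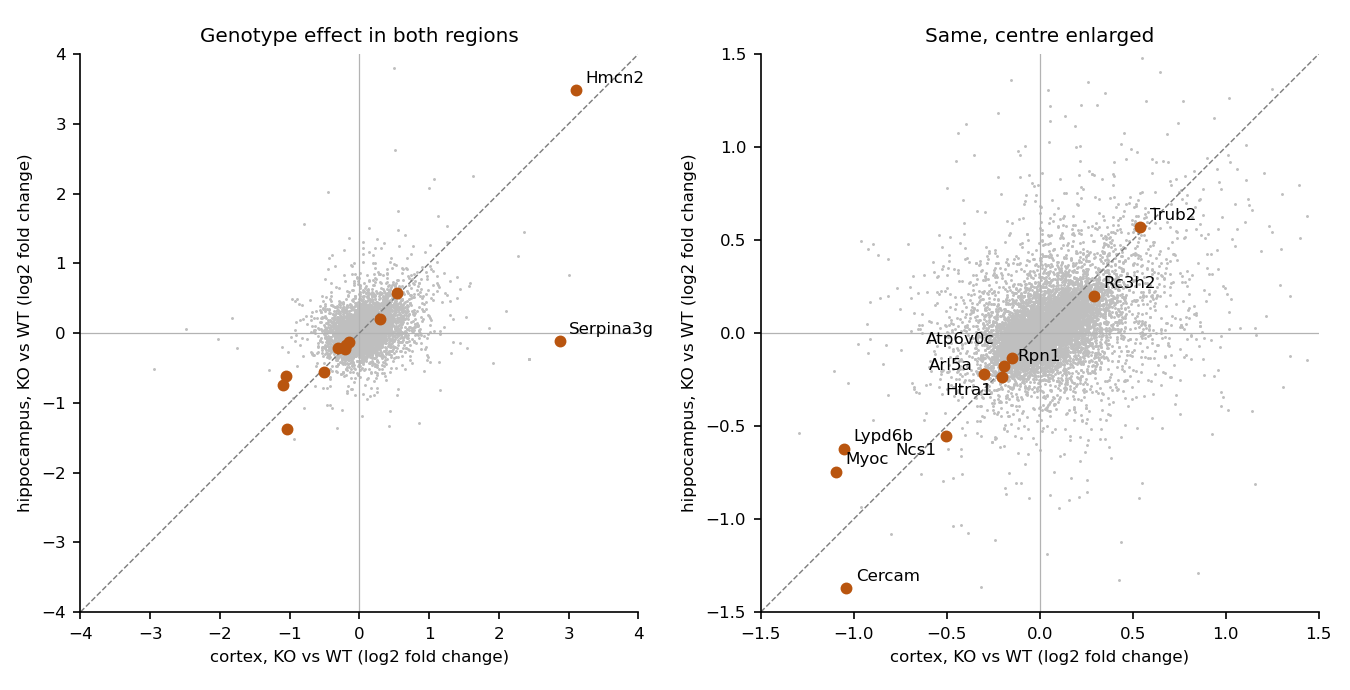
Knockout effect in cortex (horizontal axis) against hippocampus (vertical axis), both as log2 fold change, for tested genes within the axes in grey and the 12 genes with a shared effect in orange, with the right panel enlarging the centre and the dashed line marking equal effects. The orange points lie near the dashed line except Serpina3g, at 2.87 in cortex and -0.12 in hippocampus.

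Of the 12 genes Hmcn2 showed the largest shared rise. Its product, hemicentin 2, is a large protein of the extracellular matrix. The gene starts 18.9 kb beyond Ncs1 on the same strand (mm10 chr2:31314332-31460738, with Ncs1 at chr2:31245923-31295471). Wild-type cortex was at 0.450, 0.659, 0.309, 0.390 and 0.779 CPM and knockout cortex at 3.37, 5.24, 4.20, 4.02 and 5.39 CPM. Wild-type hippocampus was at 0.581, 0.194, 0.468, 0.426 and 0.489 CPM and knockout hippocampus at 3.15, 3.81, 8.01, 5.55 and 4.12 CPM. The groups were far apart in both regions, and knockout hippocampus replicate 3 was the highest library. The log2 fold change was 3.11 (SE 0.29) in cortex and 3.49 (SE 0.29) in hippocampus, with an interaction of 0.38 (95% interval -0.52 to 1.28) and an edgeR adjusted p of 2.70e-09 for the shared effect.

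Trub2 and Cercam are neighbours on the other side of Ncs1, and they changed in opposite directions. Trub2, a pseudouridine synthase that acts on mitochondrial RNA, spans chr2:29774684-29787671. It was at 22.4, 23.1, 25.7, 27.5 and 23 CPM in wild-type cortex and at 33.3, 35.9, 36.6, 34.9 and 36.4 CPM in knockout cortex. Hippocampus libraries had 23.6, 20.9, 26.4, 23.8 and 20.2 CPM (wild type) and 36.3, 31.9, 34.9, 34.2 and 33.1 CPM (knockout). Each knockout library was above each wild-type library of its region. The rise was 1.45-fold in cortex and 1.48-fold in hippocampus, and the interaction of 0.03 had a 95% interval of -0.17 to 0.23. Trub2 overlaps Coq4 on the opposite strand, and without knowing whether counting used strand its reads cannot be told from those of Coq4.

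Cercam, which encodes an adhesion protein of brain endothelium, spans chr2:29869494-29882840 and ends 1363 kb before Ncs1. Wild-type cortex libraries had 3.38, 3.63, 3.70, 4.87 and 3.84 CPM, against 2.27, 1.44, 1.37, 2.16 and 2.24 CPM in knockout. Wild-type hippocampus libraries had 4.55, 4.31, 3.74, 3.87 and 3.95 CPM, against 2.08, 1.44, 1.29, 1.67 and 1.35 CPM in knockout. The highest knockout library of each region stayed below the lowest wild-type library. The log2 fold change was -1.04 (SE 0.17) in cortex and -1.37 (SE 0.16) in hippocampus, and the interaction was -0.33 (95% interval -0.81 to 0.14, edgeR p 0.162).

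Lypd6b lies 18492 kb from Ncs1, at chr2:49787686-49948846, and encodes a membrane-anchored protein of the Ly6 family that modulates nicotinic acetylcholine receptors. It was more abundant in cortex, with wild-type libraries at 11.6, 12.7, 16.5, 13.8 and 13.2 CPM and knockout libraries at 7.38, 6.21, 8.14, 5.78 and 5.20 CPM. In hippocampus wild-type libraries were at 5.37, 4.6, 4.96, 4.41 and 4.89 CPM and knockout libraries at 2.89, 3.93, 3.38, 2.17 and 3.35 CPM. The groups did not overlap in either region. The fall was 2.07-fold in cortex and 1.54-fold in hippocampus. Of the 12 genes only Lypd6b and Serpina3g had an interaction p under 0.05, and that of Lypd6b, at 0.43 (SE 0.20, 95% interval 0.02 to 0.84, edgeR p 0.0395), had an edgeR adjusted p of 0.9998.

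Arl5a, a small GTPase of the trans-Golgi network, lies 21102 kb from Ncs1. It was at 159, 156, 164, 158 and 159 CPM in wild-type cortex and 120, 124, 148, 129 and 126 CPM in knockout cortex. Wild-type hippocampus was at 161, 162, 161, 170 and 163 CPM and knockout hippocampus at 124, 150, 155, 135 and 136 CPM. Knockout libraries were lower throughout and varied more than wild type, with an SD of 11.1 against 3.03 CPM in cortex and 12.6 against 3.97 CPM in hippocampus. The log2 fold changes were -0.30 (SE 0.06) and -0.22 (SE 0.06), with an interaction of 0.08 (95% interval -0.09 to 0.25). Rc3h2, which encodes the RNA-binding ubiquitin ligase roquin-2 and lies 6075 kb from Ncs1, rose 1.23-fold in cortex and 1.15-fold in hippocampus at 105 to 148 CPM, with knockout and wild-type libraries overlapping in hippocampus.

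Rbm43, which encodes an RNA-binding protein, lies 20629 kb from Ncs1 and between Lypd6b and Arl5a. It did not pass for the shared effect (edgeR adjusted p 0.0593). Hippocampus libraries had 18.9, 15.2, 17, 15.4 and 13.6 CPM (wild type) and 28.7, 21.7, 18.3, 25.2 and 27.3 CPM (knockout). In cortex wild-type libraries were at 14.2, 15.5, 15.7, 12.5 and 11.7 CPM and knockout libraries at 18.5, 17, 14.2, 16.3 and 16.3 CPM. The groups overlapped in both regions, with knockout hippocampus replicate 3 the lowest of its group. The log2 fold change was 0.24 (SE 0.12) in cortex and 0.60 (SE 0.11) in hippocampus, and the interaction was 0.36 (SE 0.17, edgeR p 0.0391, adjusted p 0.9998).

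Of the 5 genes on other chromosomes, Myoc on chromosome 1 had the largest shared fall. It encodes myocilin, a secreted glycoprotein. Wild-type cortex was at 21.7, 18.9, 11.8, 16.8 and 23 CPM and knockout cortex at 7.96, 7.19, 12.7, 6.69 and 8.41 CPM. Wild-type hippocampus was at 23.3, 20.2, 16.7, 19.3 and 20.8 CPM and knockout hippocampus at 8.93, 10.7, 13.4, 10.9 and 15.8 CPM. Hippocampus groups did not overlap, and in cortex replicate 3 of each genotype crossed over. The fold was 2.14 in cortex and 1.68 in hippocampus, with an interaction of 0.35 (95% interval -0.18 to 0.89) and an edgeR adjusted p of 0.00129 for the shared effect.

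The other genes outside chromosome 2 changed by small factors. Htra1, a secreted serine protease, fell 1.15-fold in cortex and 1.18-fold in hippocampus at 98.3 to 150 CPM, with an edgeR adjusted p of 0.0152 for the shared effect. Atp6v0c, the proteolipid subunit of the proton pump of lysosomes and synaptic vesicles, fell 1.14-fold and 1.13-fold. It overlaps a pseudogene copy, Atp6v0c-ps2, on the same strand, which makes its counts uncertain. Rpn1, a subunit of the oligosaccharyltransferase that glycosylates proteins in the endoplasmic reticulum, fell 1.11-fold and 1.10-fold. The 95% intervals of their interactions were -0.19 to 0.12, -0.13 to 0.16 and -0.09 to 0.13, which bounds any regional difference in them.

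**Figure D2:**
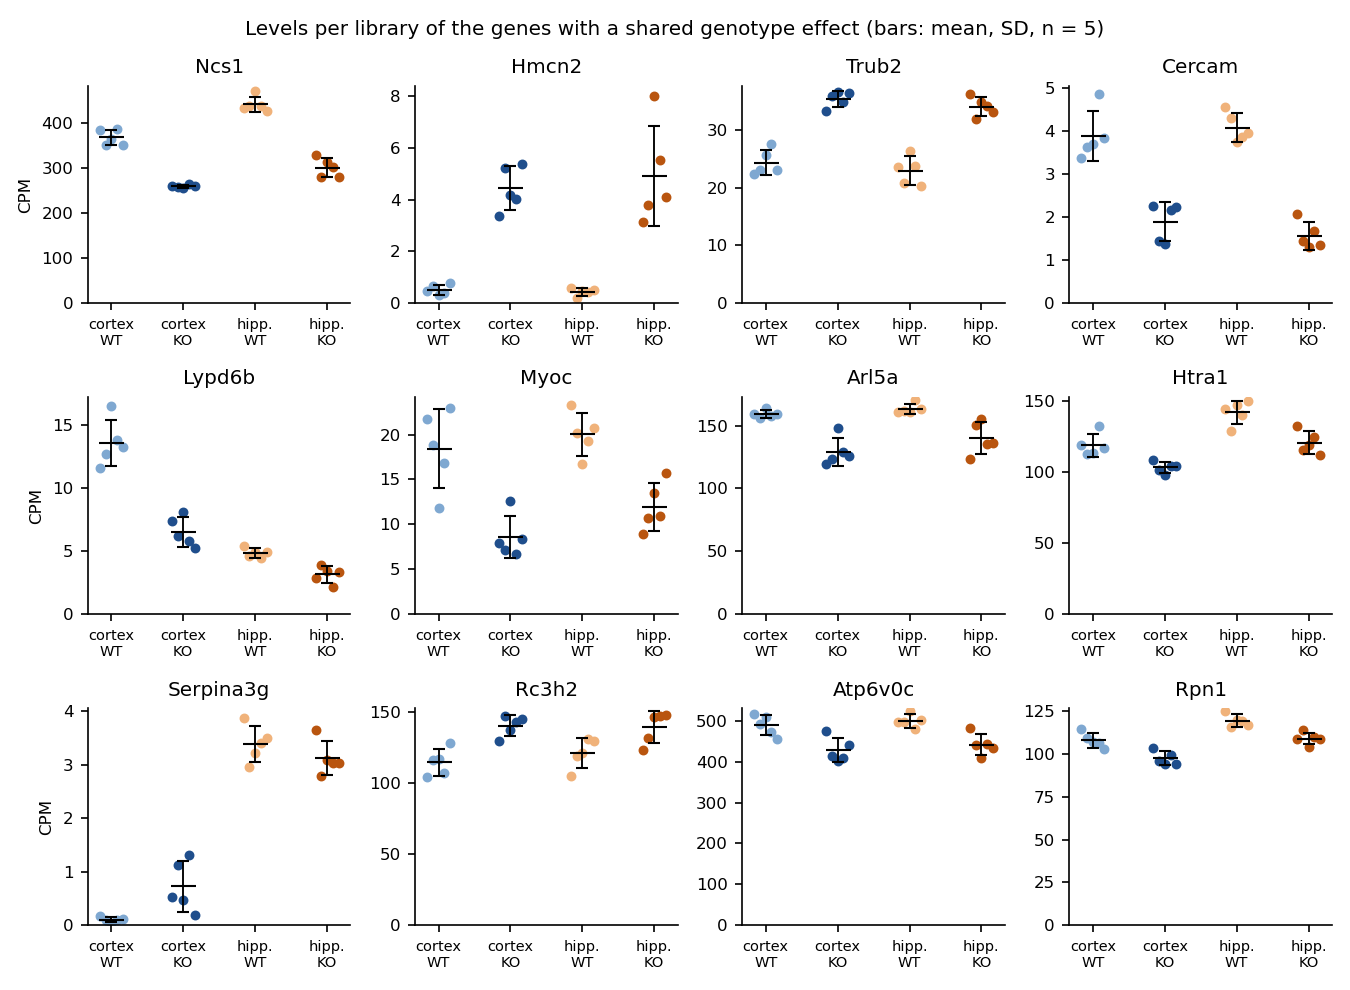
Level in each library, in CPM on linear axes starting at 0, of the 12 genes with a shared knockout effect, with points for libraries and bars for the mean and SD of each group (n = 5). In Ncs1, Hmcn2, Trub2, Cercam, Lypd6b and Arl5a no knockout library overlaps the wild-type libraries of its region, while Serpina3g differs in cortex and not in hippocampus.

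The groups were also described without a model, by whether their libraries overlapped. Knockout and wild-type libraries did not overlap for 323 genes in cortex (2.11%) and for 67 in hippocampus (0.438%). Of the 252 arrangements of a region's libraries, a proportion of 0.00794 leaves no overlap. The cortex share lay above that proportion and the hippocampus share below it. In both regions and in the same direction, libraries did not overlap for 6 genes (0.0392%): Ncs1, Hmcn2, Trub2, Cercam, Lypd6b and Arl5a, all on chromosome 2. These 6 were 1.86% of the genes apart in cortex and 8.96% of those apart in hippocampus. For 0 genes did the groups separate in both regions in opposite directions. Without wild-type cortex replicate 5 the cortex number was 1248, without knockout cortex replicate 1 it was 936, and without knockout hippocampus replicate 1 the hippocampus number was 597 and the number for both regions 28. With 1 library fewer, groups separate more easily. Leaving out any other library of the same region gave 411 to 522 genes in cortex and 106 to 228 in hippocampus.

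Tested one region at a time in the same fit, 7 genes passed in cortex (0.0457%) and 4 in hippocampus (0.0261%). The cortex genes were Ncs1, Hmcn2, Trub2, Cercam, Lypd6b, Myoc and Serpina3g, and the hippocampus genes Ncs1, Hmcn2, Trub2 and Cercam, so each gene that passed in hippocampus also passed in cortex. An effect that passed in cortex alone is not thereby shown to differ. For Lypd6b and Myoc the interaction did not pass. At an unadjusted p of 0.05 there were 1605 genes in cortex (10.5%, with 5.54% higher and 4.94% lower) and 701 in hippocampus (4.58%, with 2.59% higher and 1.99% lower). Of these, 240 genes were in both sets. Of the 240, 157 were higher and 82 lower in both regions, and 1 had opposite signs.

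Across all genes the effects of both regions leaned the same way. The sign was the same in both for 70.5% of the tested genes, for 88.3% of the 1605 genes with a cortex p under 0.05 and for 90.6% of the 701 genes with a hippocampus p under 0.05. Pearson's r of the log2 fold changes was 0.379 and Spearman's rho 0.459 over 15310 genes. It was 0.203 for the 1321 genes with a mean under 1 CPM, 0.401 for 4104 genes at 1 to 10 CPM, 0.605 for 5334 genes at 10 to 50 CPM and 0.678 for 4551 genes at 50 CPM or more. Without the genes within 20 Mb of Ncs1 it was 0.361. These are descriptions across genes, which are not independent replicates, and the regions may have come from the same mice. Log2 fold changes also went with exonic length, with r 0.17 in cortex and 0.16 in hippocampus, while the interaction had r -0.036 with length. With the length trend of each library removed r between the regions was 0.362 and 16 genes passed for the shared effect, 11 of the 12 among them. Leaving out knockout hippocampus replicate 5 brought r to 0.206.

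The interaction was then tested for every gene. With edgeR 0 of 15310 genes passed (0%). An unadjusted p under 0.05 was found for 214 genes (1.4%), 110 with a more positive effect in hippocampus (0.718%) and 104 with a more negative one (0.679%). If no gene differed between regions, a share of 0.05 would fall under this threshold, so the 214 genes are not read as regional effects. The share found was well below 0.05, so the p-values of this fit ran high, and small regional differences may be missed. The fit took the libraries of both regions as independent, which the labels do not state. With genotype and number taken as 1 mouse, edgeR gave 325 genes at an unadjusted p under 0.05, and 0 passed. By sign alone 49.1% of all genes had a positive and 50.8% a negative interaction. limma-voom also called 0 genes, with 229 at an unadjusted p under 0.05. DESeq2 called 1 gene, Serpina3g, with 176 at an unadjusted p under 0.05. Of the 214 genes, 177 had opposite signs in the regions, where 70.5% of all tested genes had the same sign. Choosing genes by the difference between regions favours opposite signs, so this count is only a description. The cortex effect was the larger one in 157 of them. By edgeR, 119 had a p under 0.05 in cortex alone against 33 in hippocampus alone.

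The intervals show what size of regional difference the data could hold, if the libraries of both regions are taken as independent. The median SE of the interaction was 0.123 on the log2 scale, against 0.0616 for the shared effect. For 11406 genes (74.5%) the whole 95% interval of the interaction lay within a 1.5-fold difference in either direction, and for 13473 (88%) within a 2-fold difference. Of the 9885 genes at 10 CPM or more on average, 96.4% had an interval within 1.5-fold. For well expressed genes a regional difference beyond that size was therefore outside the interval, while for 36.2% of all genes the interval lay within 1.2-fold, so that small differences would mostly go unseen.

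**Figure D3:**
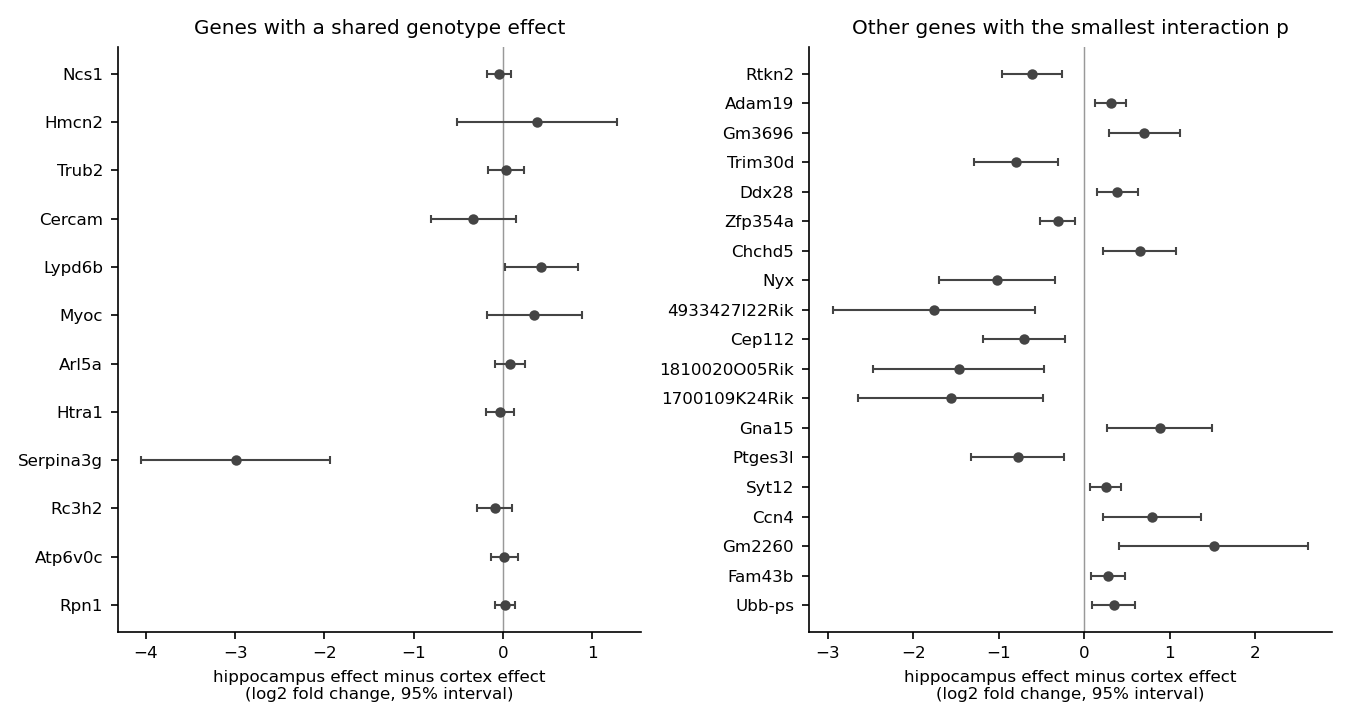
Interaction (hippocampus effect minus cortex effect, log2 fold change) with its 95% interval for the 12 genes with a shared effect (left) and for the other genes with the smallest interaction p (right, 10 per direction with Serpina3g shown on the left). On the left only Lypd6b and Serpina3g have intervals that leave out 0, and on the right all do by the way they were chosen.

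Serpina3g, on chromosome 12, had the smallest interaction p. It encodes an intracellular inhibitor of cysteine proteases and is a known interferon-induced gene. Its cortex level was low, at 0.169, 0.0942, 0.0386, 0.0974 and 0.104 CPM (wild type) and 0.523, 1.13, 0.472, 1.31 and 0.182 CPM (knockout). Hippocampus libraries had 3.87, 2.95, 3.23, 3.41 and 3.50 CPM (wild type) and 3.66, 2.80, 3.09, 3.03 and 3.04 CPM (knockout). Every knockout cortex library was above the wild-type range, knockout cortex replicate 5 only just, and the hippocampus groups overlapped. All cortex libraries were below all hippocampus libraries. The log2 fold change was 2.87 (SE 0.45, edgeR adjusted p 0.00726) in cortex and -0.12 (SE 0.23) in hippocampus, and the interaction was -2.99 (SE 0.51, 95% interval -4.05 to -1.93, edgeR p 7.99e-06, adjusted p 0.122). The adjusted p was 0.00296 without knockout cortex replicate 5 and between 0.00296 and 0.685 over the fits that left out 1 library. The deposited gene model of Serpina3g overlaps Serpina3f on the same strand, and the gene belongs to a cluster of close copies, so its counts are uncertain. Its place among the 12 shared calls came from cortex.

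The next genes with a more negative effect in hippocampus had an edgeR adjusted p of 0.9998 each and are given as values. Rtkn2 had a mean of 3.56 ± 0.344 CPM in wild-type cortex and 4.53 ± 0.419 CPM in knockout cortex, and at 3.40 ± 0.379 and 2.85 ± 0.442 CPM in hippocampus (SD, n = 5 each). Its log2 fold change was 0.35 in cortex and -0.26 in hippocampus, an interaction of -0.61 (SE 0.17, edgeR p 0.00154). Trim30d, of a family of ubiquitin ligases linked to innate immunity, had 0.67 in cortex and -0.12 in hippocampus. Zfp354a, a zinc finger protein, had 0.25 and -0.06, and Nyx, a leucine-rich proteoglycan, 0.88 and -0.14. Cep112, a centrosomal protein, and Ptges3l had their larger change in hippocampus, at -0.47 and -0.56 against 0.23 and 0.22 in cortex. The remaining ones, 4933427I22Rik, 1810020O05Rik and 1700109K24Rik, were at most at 1.56 CPM in any library, and 1700109K24Rik and Ptges3l overlap other genes on the opposite strand.

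Among genes with a more positive effect in hippocampus, Adam19 had the smallest p. It encodes a membrane metalloprotease and was at 24.5, 28.1, 28.8, 23.1 and 27.7 CPM in wild-type cortex and 25.2, 23.7, 24.6, 23.7 and 24.9 CPM in knockout cortex. Hippocampus libraries had 19.1, 18.6, 18.7, 18.2 and 19.8 CPM (wild type) and 20.1, 22, 21.5, 20.3 and 23.9 CPM (knockout). Hippocampus groups did not overlap, cortex groups did. The interaction was 0.31 (SE 0.09, 95% interval 0.13 to 0.49, edgeR p 0.00197). Ddx28, an RNA helicase of mitochondria, had -0.29 in cortex and 0.09 in hippocampus, and Chchd5, a mitochondrial protein, -0.59 and 0.06. Gna15, a G protein alpha subunit, had -0.69 and 0.19, and Syt12, an atypical synaptotagmin, -0.20 and 0.05. Ccn4, a secreted matricellular protein, had -0.39 and 0.40. Fam43b and the ubiquitin pseudogene Ubb-ps had -0.34 and -0.37 in cortex and -0.06 and -0.03 in hippocampus. Gm3696, Gm2260, Ddx28 and Syt12 overlap other gene models, and each of these 10 genes had an edgeR adjusted p of 0.9998.

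Gene lists were described by their members' effects in both regions, beside those of all tested genes. For all genes the median was 0.00 in each region and for the interaction, 50.4% lay higher in knockout cortex and 49.5% in knockout hippocampus. By the median interaction, the interferon response came after the meningeal and blood cell lists given last. Of its 37 tested members, 34 lay higher in knockout cortex (median 0.29) and 21 in knockout hippocampus (median 0.05), and 33 had a negative interaction (median -0.23). In cortex 11 members had an unadjusted p under 0.05, all higher, where 5.54% of all genes did, and Serpina3g alone passed adjustment over all genes. In hippocampus 2 of 37 members had an unadjusted p under 0.05 and lay higher, Parp14 at 0.33 and Ddx58 at 0.21, where 2.59% of all genes did, and 0 passed. Serpina3g and Oasl2 had an interaction p under 0.05, and 0 members passed for the interaction.

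The interferon members in cortex were carried by some knockout libraries more than others. Relative to the wild-type mean of the region, the list median was 0.42, 0.68, 0.14, 0.23 and -0.04 in knockout cortex replicates 1 to 5, and 0.01, 0.05, -0.06, 0.02 and 0.02 in wild-type cortex. In hippocampus it was -0.06, 0.23, -0.13, -0.00 and 0.15 in knockout and 0.01, 0.21, -0.15, -0.05 and -0.01 in wild type. So 4 of 5 knockout cortex libraries were above all wild-type ones, and the hippocampus groups overlapped. Without knockout cortex replicate 2 the median of the list was 0.14 in cortex and -0.11 for the interaction.

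Oasl2, an interferon-induced protein related to oligoadenylate synthetases, was at 2.48, 2.35, 2.16, 2.29 and 2.28 CPM in wild-type cortex and 3.25, 7.14, 3.2, 3.72 and 2.78 CPM in knockout cortex. Hippocampus libraries ranged from 2.29 to 3.87 CPM (wild type) and from 2.63 to 4.01 CPM (knockout). Cortex groups did not overlap and hippocampus groups did. The log2 fold change was 0.80 (SE 0.21) in cortex and 0.13 (SE 0.20) in hippocampus, and the interaction was -0.67 (SE 0.29, edgeR p 0.0304, adjusted p 0.9998). Ifit1, which binds viral RNA, was at 2.08, 2.83, 2.62, 2.53 and 3.12 CPM in wild-type cortex and 5.11, 7.55, 3.46, 4.02 and 2.54 CPM in knockout cortex, with replicate 5 within the wild-type range. Its log2 fold change was 0.78 (SE 0.27) in cortex and 0.05 (SE 0.26) in hippocampus. Iigp1, an interferon-induced GTPase, had 0.68 (SE 0.24) and 0.14 (SE 0.23), and Isg15, a ubiquitin-like modifier, 0.79 (SE 0.33) and -0.03.

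Promoters of interferon-induced genes often hold 2 kinds of sites, bound by interferon-activated factors: the interferon-stimulated response element, searched here as GAAA, any 2 bases and GAAA, and the gamma-activated site, searched as TTCNNNGAA, both on either strand. The 200 bases upstream of the RefSeq start (GRCm38.p6, plus strand of the gene) are shown for the list members with the smallest cortex p that had an entry, and capitals mark matches. They are chr12:104235947-104236146 for Serpina3g, chr5:114896734-114896933 for Oasl2 and chr19:34640689-34640888 for Ifit1, all on the forward strand.
Serpina3g: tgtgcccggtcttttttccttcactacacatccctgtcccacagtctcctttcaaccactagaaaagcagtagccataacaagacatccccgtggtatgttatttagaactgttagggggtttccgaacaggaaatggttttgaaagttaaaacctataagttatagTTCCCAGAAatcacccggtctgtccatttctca
Oasl2: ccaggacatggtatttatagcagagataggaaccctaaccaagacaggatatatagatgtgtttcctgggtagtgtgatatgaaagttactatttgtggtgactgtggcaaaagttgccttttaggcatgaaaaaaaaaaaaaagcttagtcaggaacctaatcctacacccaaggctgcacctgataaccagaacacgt
Ifit1: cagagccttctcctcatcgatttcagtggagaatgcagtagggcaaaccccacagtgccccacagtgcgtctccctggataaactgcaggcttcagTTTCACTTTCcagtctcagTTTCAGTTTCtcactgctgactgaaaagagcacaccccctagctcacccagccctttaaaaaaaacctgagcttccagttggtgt
Serpina3g held 1 match of the gamma-activated kind, Ifit1 held 2 of the response element kind, and Oasl2 held none of these letters in this window. Of 32851 windows of this length, 2.27% held the response element letters and 5.49% the gamma-activated ones. Of the 27 list members with an entry, 13 held the former and 6 the latter. A match is a description of the letters and no evidence of binding in these samples.

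**Figure D4:**
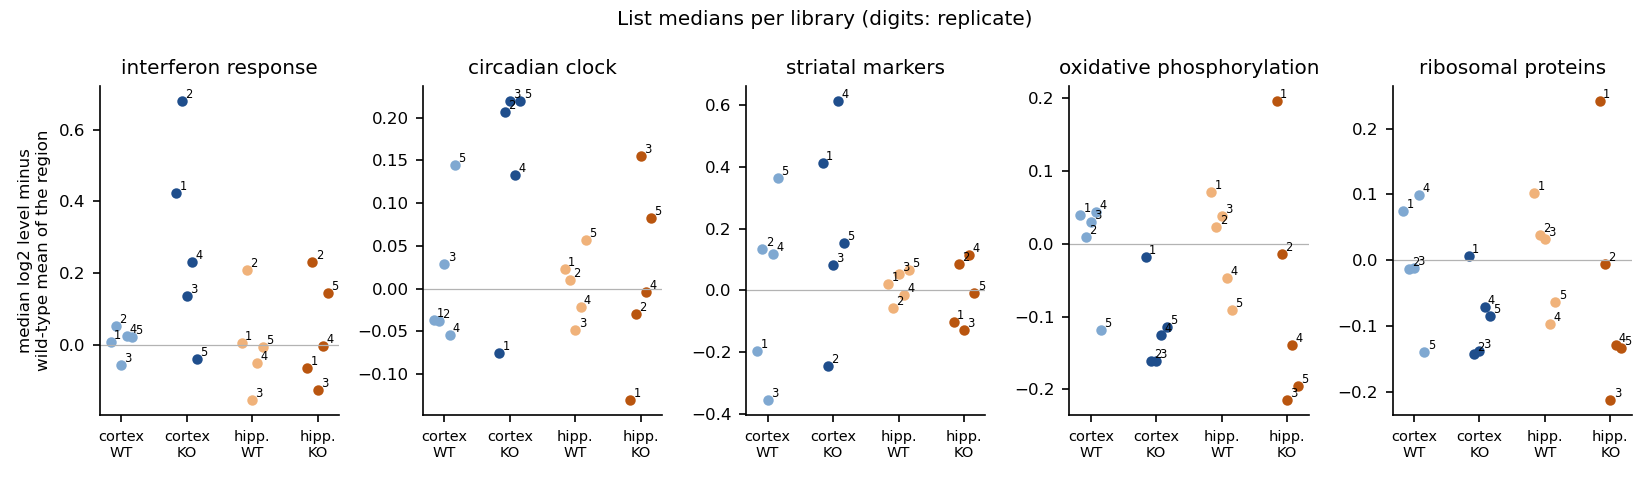
Median over the members of 5 gene lists in each library, as log2 level minus the wild-type mean of the region, with digits giving the replicate. Knockout cortex replicates 1 to 4 lie above the wild-type libraries for the interferon response, and knockout hippocampus replicate 1 lies highest of all libraries for oxidative phosphorylation and ribosomal proteins.

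The nuclear oxidative phosphorylation genes, whose products form the respiratory chain and ATP synthase, lay lower in both regions. Of 72 members, 72 lay lower in knockout cortex (median -0.12) and 67 in knockout hippocampus (median -0.07), against 49.6% and 50.5% of all genes. In cortex 21 had an unadjusted p under 0.05, all lower, where 4.94% of all genes did. In hippocampus 2 did, both lower, a share near the 1.99% of all genes. None of the 72 passed adjustment in either region by edgeR. Atp5g1, a proteolipid subunit of ATP synthase, had the smallest shared p, with -0.23 (SE 0.07) in cortex, -0.15 (SE 0.07) in hippocampus and an edgeR adjusted p of 0.155. For Ndufb4, the subunit with the smallest interaction p, the interaction was 0.53 (SE 0.21, edgeR p 0.0221, adjusted p 0.9998).

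In cortex the list median was 0.04, 0.01, 0.03, 0.04 and -0.12 in wild-type replicates 1 to 5 and -0.02, -0.16, -0.16, -0.13 and -0.11 in knockout. The groups overlapped through wild-type replicate 5, which lay below knockout replicates 1 and 5. The gap between regions in these genes rested on 1 library. In knockout hippocampus the list median was 0.20, -0.01, -0.21, -0.14 and -0.20 in replicates 1 to 5, with replicate 1 above all other libraries of the region. Without that library the hippocampus median was -0.14 and the interaction median went from 0.05 to -0.02. In that fit 31 of the 72 members (43.1%) passed for the shared effect, all lower, where 6.3% of all genes passed. With all libraries 0 of the 72 passed for it. Leaving out the highest library of a list lowers that list, so the 31 calls are no separate support. Ribosomal protein genes had medians of -0.09 in cortex (74 of 75 lower) and -0.04 in hippocampus (61 of 75 lower), and -0.12 in hippocampus without that library. With the length trend removed the cortex and hippocampus medians were -0.06 and -0.03 for oxidative phosphorylation and -0.03 and -0.01 for ribosomal proteins.

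Astrocyte markers lay lower by nearly the same amount in both regions. The median was -0.12 in cortex (15 of 16 lower) and -0.09 in hippocampus (14 of 16 lower), with an interaction median of 0.01. Library medians overlapped between genotypes in both regions. They ran from -0.099 to 0.167 in wild-type and -0.134 to -0.047 in knockout cortex. In hippocampus they ran from -0.084 to 0.039 in wild type and from -0.141 to -0.079 in knockout. Acsbg1, an acyl-CoA synthetase of astrocytes, had -0.16 (SE 0.05) and -0.15 (SE 0.05), and Gja1, the gap junction protein connexin 43, -0.12 and -0.11. Microglia markers had medians of -0.09 and -0.05, with 16 and 12 of 18 lower. With the length trend removed these medians were -0.04 and -0.02. C1qb, a complement subunit made by microglia, had -0.22 (SE 0.07) in cortex and -0.14 (SE 0.07) in hippocampus. No member of either list passed for the shared effect, where 0.0784% of all genes did.

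Genes close to the function of Ncs1 showed little. The other neuronal calcium sensors and related EF-hand proteins had a median of -0.07 in cortex and -0.05 in hippocampus over 16 tested members including Ncs1, and an interaction median of 0.00. Hpcal4, a visinin-like sensor, had -0.12 (SE 0.04) in cortex and -0.11 (SE 0.04) in hippocampus. Ncald, neurocalcin delta, had -0.11 (SE 0.05) and 0.02 (SE 0.05), an interaction of 0.13 (edgeR p 0.0687). Reported NCS1 partners had medians of -0.00 and 0.01 over 23 members. Ric8b, an exchange factor for G proteins, had 0.19 (SE 0.06) in cortex and 0.01 in hippocampus, with an interaction of -0.18 (SE 0.08, edgeR p 0.0325, adjusted p 0.9998), and Grk2, a receptor kinase, had -0.13 and -0.10. Apart from Ncs1, 0 members of these lists passed any of the 4 tests.

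The lists of the circadian clock and of striatal neurons had cortex medians that hippocampus did not share. Circadian clock genes had a median of 0.13 in cortex (17 of 21 higher) and 0.02 in hippocampus (13 of 21 higher). An unadjusted p under 0.05 was found for 10 members in cortex, 9 higher and 1 lower, where 10.5% of all genes had one, and for 0 members in hippocampus, where 4.58% of all genes had one. Dbp, an output transcription factor of the clock, had 0.34 (SE 0.11) and 0.10, Per3 0.50 (SE 0.17) and 0.29 (SE 0.17), and Tef, which had the smallest interaction p of the list, 0.16 and -0.02, an interaction of -0.19 (SE 0.08, edgeR p 0.0313, adjusted p 0.9998). Within cortex the list median was 0.21, 0.22, 0.13 and 0.22 in knockout replicates 2 to 5 but -0.08 in replicate 1. It was 0.14 in wild-type replicate 5 and -0.05 to 0.03 in the other wild-type libraries. The labels give no time of day.

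Striatal neuron markers lay higher in knockout cortex for 19 of 19 members (median 0.20) and for 9 of 19 in hippocampus (median -0.01). Their list median ranged from -0.24 to 0.61 over knockout and from -0.36 to 0.36 over wild-type cortex libraries, so the groups overlapped widely. Rgs9, a striatal regulator of G protein signalling, was at 76.7 ± 32.8 CPM in wild-type cortex and 107 ± 13 CPM in knockout cortex (SD, n = 5 each). Immediate early genes, which neurons switch on with activity, had medians of 0.23 (22 of 30 higher) and 0.11 (27 of 30 higher). Their library medians overlapped widely, from -0.50 to 0.51 in wild-type and -0.17 to 0.68 in knockout cortex. The list median ran in cortex from 0.08 without knockout replicate 5 to 0.39 without wild-type replicate 1, and in hippocampus from 0.01 without knockout replicate 5 to 0.20 without wild-type replicate 1. Glucocorticoid response genes had 0.05 in cortex and -0.12 in hippocampus, where 15 of 19 lay lower. The cortex median was -0.08 without wild-type cortex replicate 2, and the hippocampus median ran from -0.21 without wild-type replicate 2 to -0.02 without wild-type replicate 5. The summed level of this list was at 1180 to 1680 CPM (wild-type cortex) and 1250 to 1640 CPM (knockout cortex), and at 1410 to 1890 and 1450 to 1730 CPM in hippocampus. The time, handling and dissection of the samples were not tested as a source of these differences.

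**Figure D5:**
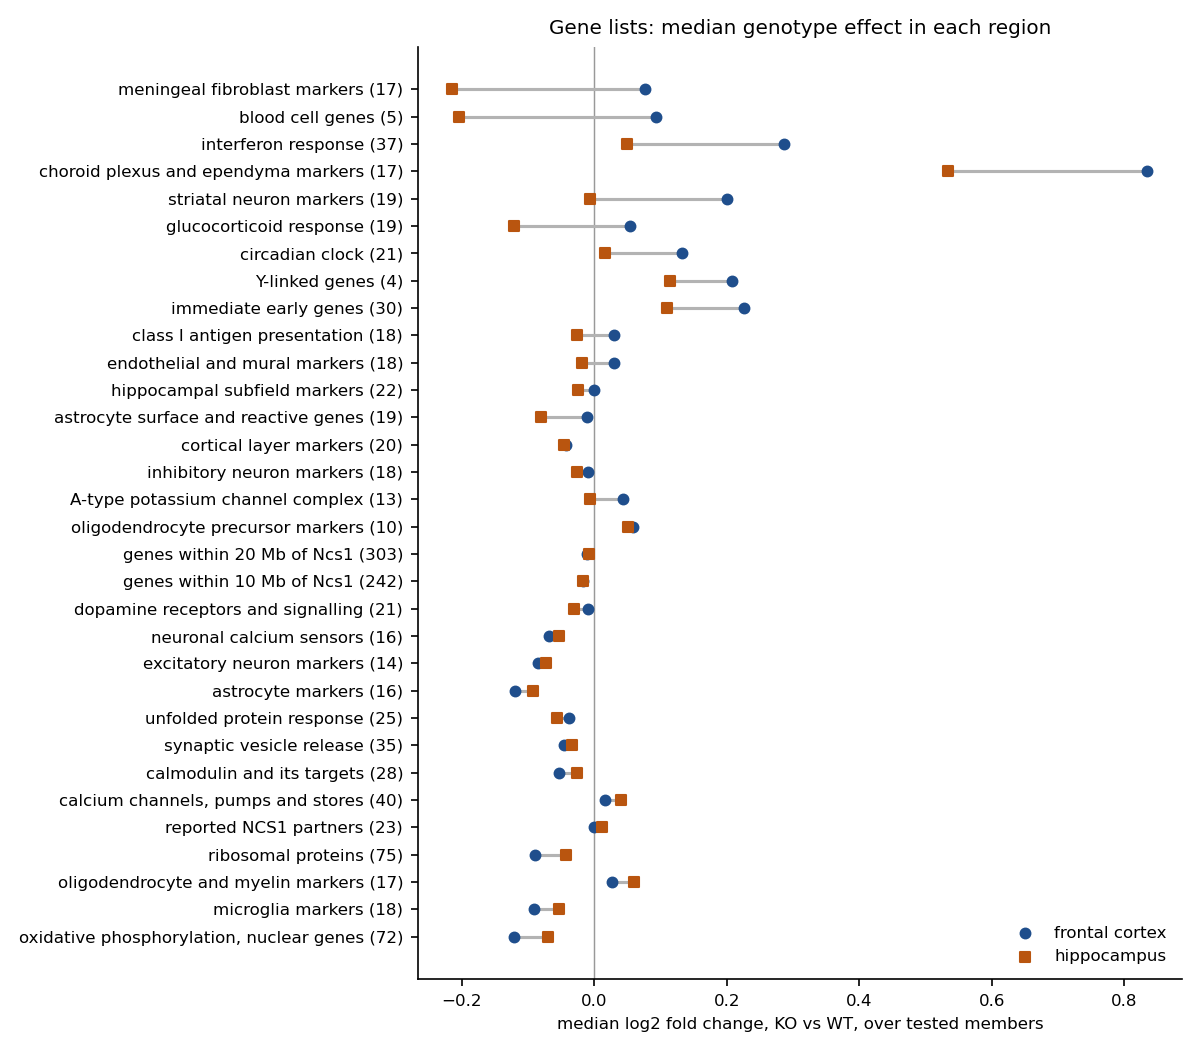
Median log2 fold change over the tested members (number in brackets) of each gene list, with circles for cortex and squares for hippocampus, ordered by the interaction median. The interferon response lies at 0.29 in cortex and 0.05 in hippocampus, while the astrocyte markers lie close together, at -0.12 and -0.09.

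Most other pathway and cell type lists lay close to 0 in both regions. The medians of calcium channels, pumps and stores were 0.02 in cortex and 0.04 in hippocampus (40 members), those of synaptic vesicle release -0.05 and -0.03 (35 members) and those of the unfolded protein response -0.04 and -0.06 (25 members). Excitatory neuron markers had -0.08 and -0.07, inhibitory neuron markers -0.01 and -0.03, and oligodendrocyte and myelin markers 0.03 and 0.06. Dopamine receptors and signalling genes had -0.01 and -0.03 over 21 members. Y-linked genes lay further from 0, with medians of 0.21 and 0.11 and 4 of 4 higher in each region. By edgeR 3 of them had an unadjusted p under 0.05 for the shared effect and lay higher, where 8.94% of all genes did, and 0 passed. Their library medians overlapped between genotypes in both regions. With the length trend removed the medians were 0.14 and 0.07. Thbs1, which encodes the matrix protein thrombospondin 1, is listed by name from earlier results and had 0.98 (SE 0.33) in cortex and 0.62 (SE 0.31) in hippocampus, with an edgeR adjusted p of 0.158 for the shared effect and an interaction of -0.36 (SE 0.45). Its hippocampus groups overlapped, with knockout libraries at 2.86, 3.21, 3.3, 7.03 and 11.2 CPM in rising order and wild type at 2.52 to 5.56 CPM.

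Markers of choroid plexus, meninges and blood also differed between the regions, and their values moved with single libraries. Choroid plexus and ependyma markers had a median of 0.83 in cortex and 0.53 in hippocampus over 17 members. Their summed level was 217 to 258 CPM in wild-type cortex, 227 to 643 CPM in knockout cortex, 209 to 3810 CPM in wild-type hippocampus and 173 to 5760 CPM in knockout hippocampus. Without knockout cortex replicate 1 the cortex median was 0.03, and the interaction median ran from -1.96 without knockout hippocampus replicate 2 to 1.65 without wild-type hippocampus replicate 4. Meningeal fibroblast markers had 0.08 in cortex and -0.21 in hippocampus, with summed levels of 226 to 1250 CPM in knockout hippocampus, and an interaction median from -0.96 without knockout hippocampus replicate 5 to 0.07 without wild-type hippocampus replicate 2. Blood cell genes had 0.09 and -0.20 over 5 members, and the hippocampus median was 0.03 without wild-type hippocampus replicate 1 and -0.38 without knockout hippocampus replicate 5. Their cortex median was 0.37 without wild-type cortex replicate 1 and 0.01 without wild-type cortex replicate 5. No member of these lists passed for the interaction, where 0% of all genes did.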

How the data were processed

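The authors deposited one table of expected counts per region, with a column per library. Per the submitters' processing notes reads were aligned with STAR 2.7.3a and quantified in Partek on mm10. Annotation, strand setting and filters: not given in the sources used here. Between 22.8% and 27.9% of values were not whole at a tolerance of 0.001, and 0 columns were left unmapped.

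Expected counts were rounded, the tables joined on gene symbol, and genes kept by edgeR's filterByExpr, which retained 99.968% of counts. One edgeR 4.0.16 quasi-likelihood fit (R 4.3.3, TMM scaling) over the 20 libraries gave every contrast, with Benjamini-Hochberg adjustment over all tested genes, a threshold of 0.05 and 95% intervals. It was also run on simulated counts, drawn independently for each library, which cannot show how libraries linked between the regions would affect it. Alternatives used DESeq2 1.42.0, limma 3.58.1, other scalings, filters and blocks, and each library left out. Deposited gene ends were taken as 1 base past the last.

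Genes named were Ncs1, all called genes, the 10 with the smallest interaction p per direction, the list members with the smallest interaction or shared p, and some known from earlier results. Members and lists were chosen with earlier results of these data known. Isg15, Parp14, Ddx58, Gja1, Hpcal4 and Dbp were named after their values were seen.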

Additional observations from a re-analysis of the deposited data

Results flagged for a closer look

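In 7 of 144 groups of 5 libraries, over 36 named genes, the highest or lowest library lay further from its neighbour than Dixon's 95% limit allows, and chance flags about 1 in 20 groups. Wild-type hippocampus replicate 3 held 3 of the 7: Ncs1 at 470.9 CPM (next 437.8), Syt12 at 33.78 CPM (next 30.01) and 1810020O05Rik at 0.2807 CPM (next 0.5322). Arl5a was at 170.1 CPM in wild-type hippocampus replicate 4 (next 162.9), and 1700109K24Rik at 0.6109 CPM in wild-type hippocampus replicate 5 (next 0.4354). Gna15 was at 1.648 CPM in wild-type cortex replicate 2 (next 1.273), and Ccn4 at 4.775 CPM in knockout cortex replicate 4 (next 5.869). No source for these values was tested.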

How the results depend on the processing

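The interaction gave 0 calls with edgeR under every alternative except without knockout cortex replicate 5 (0 to 1 calls over the fits without 1 library) and 1 call with DESeq2. The shared effect gave 12 calls, and 7 at a mean of at least 5 CPM, 153 with DESeq2 and 5 without the 4 libraries with more than 100 CPM of Ttr, an alternative chosen after seeing the data, as was the length trend. Cortex gave 4 calls at 5 CPM, 21 with DESeq2 and 4 with the regions fitted separately, and hippocampus 2 at 5 CPM. Without 1 library the calls ran from 8 to 969 (shared), 6 to 9 (cortex) and 4 to 5 (hippocampus). Genes apart in both regions ran from 6 to 28 in the same and 0 to 1 in opposite directions, in cortex from 323 to 1248 and in hippocampus from 67 to 597. Without the Ttr libraries they were 41, 930 and 514. Pearson's r ran from 0.206 to 0.436 and was 0.585 at 5 CPM. The causes were not tested.

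Over the fits without 1 library, interactions near 0 changed sign: Trub2 reached 0.0829, Atp6v0c 0.0655 and Rpn1 0.0521 at most. That of Trub2 was -0.0183, -0.0028 and -0.014 without wild-type cortex replicate 4 and wild-type hippocampus replicates 2 and 5. That of Atp6v0c was -0.0046, -0.0054, -0.0013, -0.0001 and -0.0186 without wild-type cortex replicate 1, knockout cortex replicates 3 and 4, wild-type hippocampus replicate 4 and knockout hippocampus replicate 1. That of Rpn1 was -0.0047 without wild-type cortex replicate 1. Of 2160 list medians, 178 changed sign and 5 moved by 1 SD or more.

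Replicate numbers are shared between groups. Deviations of same-numbered cortex and hippocampus libraries of a genotype correlated above 0.1 in 9 of 10 pairs (-0.23 to 0.61). Best matches were the own number for 8 of 10 cortex and 7 of 10 hippocampus libraries. Same-numbered wild-type and knockout libraries correlated at -0.14 to 0.27 in cortex and 0.054 to 0.42 in hippocampus. The labels do not tie numbers to mice, so the pairing is not established. A replicate block by number gave 0 interaction, 128 shared, 10 cortex and 4 hippocampus calls. A replicate block taking genotype and number as 1 mouse gave 0 interaction and 5 shared calls, without Arl5a, Atp6v0c, Htra1, Myoc, Rc3h2, Rpn1 and Serpina3g.

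The precision of the interaction went with count level: at a mean of at least 50 CPM 98.8% of intervals lay within 1.5-fold, against 74.5% of all.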
